A study of Caenorhabditis elegans with 2 samples.

Results

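The 8 genes cct-1 to cct-8 of Caenorhabditis elegans encode the subunits of the cytosolic chaperonin CCT, and all 8 were found by symbol among 19973 protein-coding genes of the nuclear chromosomes. Binding of the nuclear hormone receptor NHR-12 near them was read from chromatin immunoprecipitation followed by sequencing (ChIP-seq), which lists the genome regions enriched with a tagged protein. There was 1 group of 2 biological replicates: whole L1 larvae, the larval stage just after hatching, with the sexes pooled. They were of strain OP318 (unc-119(ed3) III; wgIs318), which stably expresses NHR-12 with GFP-FLAG at its C-terminus. Both replicates carried the unc-119(ed3) allele and the transgene, both came from this same strain, and the age within the stage was unknown. No untagged or second-condition sample was compared, the cells in which the fusion was made were not given, and whole larvae do not show in which tissue a site was occupied.

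CCT, also called TRiC, is a large complex of a pair of stacked rings, and each ring holds 1 copy of every subunit. Newly made actin and tubulin enter the chamber inside a ring and fold there with ATP, and prefoldin, a smaller complex, delivers some of these clients. In C. elegans, loss of CCT subunits is known to disturb microtubules and embryonic development. A ring needs every subunit, and so the genes are described together. Nuclear hormone receptors are transcription factors with zinc fingers, a family that is greatly expanded in nematodes.

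A gene was counted where the midpoint of a listed region lay in its promoter window, which began 500 bp before the 5′ end of the gene record and closed 200 bp inside the gene. Of the lists the authors deposited in the ce11 build, 4 were used. The list of each replicate and the joint list, which was made from both replicates at once, hold peaks and background regions together, so a region in them is not by itself a called peak. The fourth is the part of the joint list that passed a threshold on the irreproducible discovery rate (IDR). That IDR set of 164 regions, 146 of them nuclear, held the same regions as the strongest 164 of the joint list. The signal value came from the peak calling by the authors, its scale was not stated, and it serves here only to rank regions within 1 list. The lists hold no read counts, so depth was unknown.

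NHR-12 regions of the IDR set lay upstream of cct-8, the theta subunit, and of cct-1, the alpha subunit. A weaker region, below the IDR set, lay upstream of cct-5, the epsilon subunit, and no joint region lay in the window of the other 5 genes. The IDR count was therefore 2 of 8 genes, where 0.511% of all protein-coding genes had such a region. The joint count was 3 of 8, beside 4.98% of all protein-coding genes. With the window cut to 250 bp upstream, the IDR count and the joint count were both 0 of 8. Over all genes counted in the 500 bp window, 38.2% in the IDR set and 39.1% in the joint list had their strongest midpoint beyond 250 bp upstream. The midpoints of both IDR regions lay between the CCT gene and a gene on the opposite strand, and were nearer to the 5′ end of that neighbour. Each region also reached past that 5′ end.

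The sequences under these 3 joint regions are shown because they are the joint regions in the promoter windows of the CCT genes. That of cct-5 is below the IDR set, and so it is not by itself a called peak. Each is given on the strand of the CCT gene, 5′ to 3′, with 120 bases before the region's midpoint and 150 bases from the midpoint on, so that the CCT gene follows to the right. They were read from the RefSeq copy of WBcel235, which is the ce11 assembly. Capitals mark every match to 1 of the 8 motifs searched, which are named with the counts further on.
cct-8 region, chrIV:1094209-1094478, minus strand: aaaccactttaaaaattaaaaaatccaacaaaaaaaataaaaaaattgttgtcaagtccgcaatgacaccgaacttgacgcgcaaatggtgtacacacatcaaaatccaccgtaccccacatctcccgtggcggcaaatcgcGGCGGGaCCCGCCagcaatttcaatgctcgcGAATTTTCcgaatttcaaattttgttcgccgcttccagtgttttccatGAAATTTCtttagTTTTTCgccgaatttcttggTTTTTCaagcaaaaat
cct-1 region, chrII:8185027-8185296, plus strand: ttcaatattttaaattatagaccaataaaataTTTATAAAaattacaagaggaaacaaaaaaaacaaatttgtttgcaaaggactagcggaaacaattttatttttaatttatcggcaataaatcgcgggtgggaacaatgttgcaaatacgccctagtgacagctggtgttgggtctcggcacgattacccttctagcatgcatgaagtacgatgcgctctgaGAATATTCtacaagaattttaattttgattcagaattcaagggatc
cct-5 region, chrIII:4508242-4508511, minus strand: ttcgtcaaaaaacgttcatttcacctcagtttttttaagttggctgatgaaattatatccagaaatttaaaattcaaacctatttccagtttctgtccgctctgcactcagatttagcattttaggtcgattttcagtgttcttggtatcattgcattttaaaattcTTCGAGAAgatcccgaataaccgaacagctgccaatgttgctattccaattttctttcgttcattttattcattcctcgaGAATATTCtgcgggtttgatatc

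The cct-8 gene (WBGene00021934) runs from 1087108 to 1093920 on the minus strand of chromosome IV. Its IDR region, chrIV:1094170-1094545, had a signal of 73.8 and ranked 36 of 164, or 22 among the 146 nuclear regions. The midpoint was intergenic, 438 bp upstream of cct-8 and 183 bp upstream of Y55F3AR.2 (WBGene00021933), a divergent gene annotated in RefSeq as a thioredoxin domain protein. Replicate 1 listed a region at chrIV:1094152-1094547 with a signal of 36.7 and rank 39 of 26878. Replicate 2 listed one at chrIV:1094139-1094502 with a signal of 38.7 and rank 33 of 30000. The replicate midpoints were 29 bp apart, and both regions stood near the top of their lists, at 0.145% of the list in replicate 1 and 0.11% in replicate 2. Among nuclear regions only, the ranks were 19 in replicate 1 and 33 in replicate 2, whose list holds nuclear regions only. The short noncoding RNA gene Y55F3AR.4 (WBGene00196098) lies between the pair, at 1094087 to 1094209, and the IDR region overlapped part of it. The 5′ end of Y55F3AR.4 was 271 bp from the joint midpoint, nearer than that of cct-8. In C. elegans, raised expression of cct-8 is known to increase assembly of the whole CCT complex and to extend life span.

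The cct-1 gene (WBGene00000377) runs from 8185443 to 8187601 on the plus strand of chromosome II. Its IDR region, chrII:8184959-8185334, had a signal of 52.5 and ranked 76 of 164, or 60 among the nuclear regions. The midpoint was intergenic, 296 bp upstream of cct-1 and 124 bp upstream of mig-5 (WBGene00003241), a divergent gene for a Dishevelled homologue of Wnt signalling. Replicate 1 listed a region at chrII:8184953-8185348 with a signal of 22.7 and rank 109, or 89 among its nuclear regions. Replicate 2 listed one at chrII:8184997-8185360 with a signal of 27.8 and rank 75. These midpoints were 28 bp apart, and the joint midpoint was 4 bp from that of replicate 1 and 32 bp from that of replicate 2. No other region of the 4 lists had its midpoint within 2000 bp of the cct-1 5′ end.

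Both genes were thus placed alike in the 2 replicates, cct-8 ahead of cct-1 in each. Of the 146 nuclear IDR regions, 140 had a region within 100 bp in both replicates, and 69 (47.3% of the 146) ranked within the strongest 164 in both. The regions of cct-8 and cct-1 were among these 69. The plot of replicate ranks shows them in the dense part of the cloud, away from the regions that ranked high in only one replicate.

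**Figure D1:**
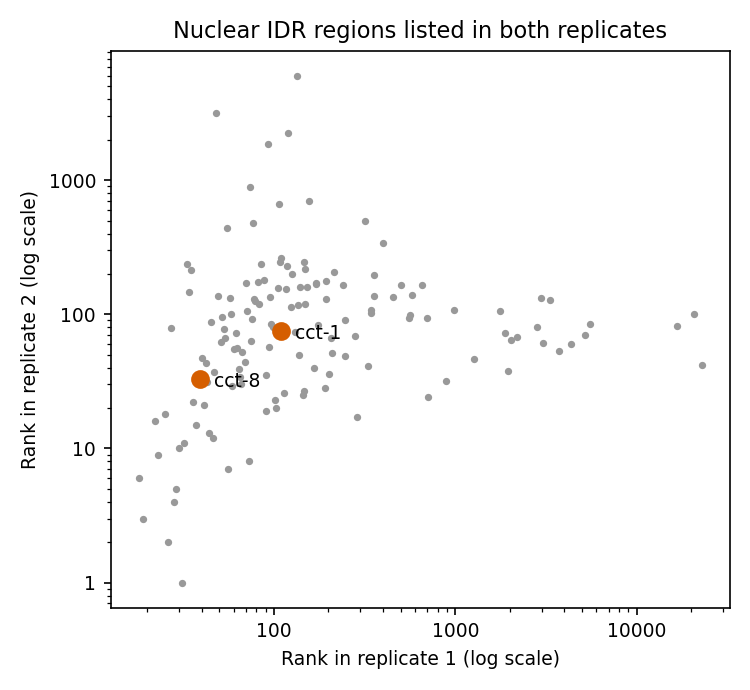
Rank in replicate 1 (x axis) against rank in replicate 2 (y axis), both on log scales, for the 140 nuclear IDR regions with a region within 100 bp in both lists. Grey points are regions, and the orange points are the regions upstream of cct-8 (ranks 39 and 33) and cct-1 (ranks 109 and 75).

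The other nuclear IDR regions most alike in rank were found over the joint list and both replicate lists, as the Euclidean distance in log2 rank among 139 other regions. For cct-8 they were the regions nearest to tasp-1 (distance 0.17, ranks 35, 43 and 31 in the joint, replicate 1 and replicate 2 lists) and ins-13 (distance 0.45, ranks 45, 47 and 37). For cct-1 they were those nearest to T24D8.6 (distance 0.26, ranks 87, 99 and 80) and nlp-40 (distance 0.30, ranks 85, 130 and 74). The likeness is one of rank only and rests on 2 replicates.

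The cct-5 gene (WBGene00000380) runs from 4499188 to 4508114 on the minus strand of chromosome III. Its joint region, chrIII:4508203-4508578, had a signal of 25.4 and ranked 526 of 3817. The weakest region of the IDR set had a signal of 37.1. The midpoint was intergenic, 277 bp upstream of cct-5, and no protein-coding 5′ end was nearer. It also lay in the window of the divergent gene F25F2.1, a putative protein kinase gene whose 5′ end is 741 bp upstream of that of cct-5. Replicate 2 listed a region 1 bp from this midpoint, with a signal of 19.1 and rank 224. Replicate 1 listed none in the window, and its nearest midpoint was 859 bp upstream, inside F25F2.1, with rank 16533.

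The cct-5 region was thus matched in replicate 2 only. Among the 361 nuclear joint regions below the IDR set and at least as strong as this one, 266 had a region within 100 bp in both replicates, 63 (17.5%) in replicate 2 only, 30 in replicate 1 only and 2 in neither. Among nuclear IDR regions 5 of 146 (3.42%) were listed in replicate 2 only. In the −log10 q-value of the authors' caller, the cct-5 region had 2.23 in replicate 2, the top value of that list, which 253 of its regions shared, and 0.512 in the joint list. The regions of cct-8 and cct-1 had the top value in every list: 1.08 in the joint list, 1.07 in replicate 1 and 2.23 in replicate 2. This value is shared and does not set them apart: all 164 IDR regions, 200 joint regions and 172 regions of replicate 1 had the top value of their list. A larger value stands for a smaller q-value. The 1.08 and 1.07 are low on this scale, so being at the top of the list is not by itself strong support.

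**Figure D2:**
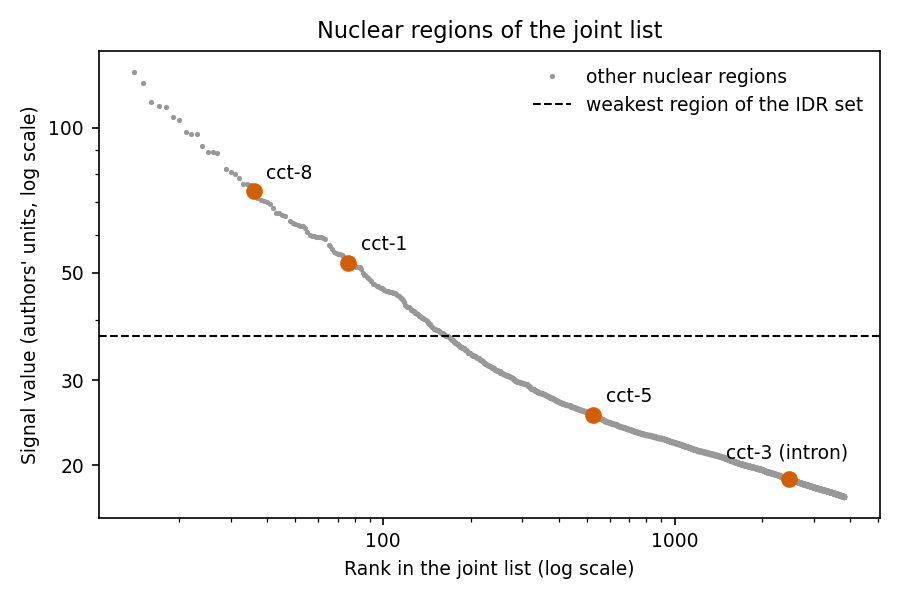
Signal value (y axis, the authors' units, log scale) against rank (x axis, log scale) for the 3798 nuclear regions of the joint list. Orange points are the regions upstream of cct-8 (73.8), cct-1 (52.5) and cct-5 (25.4) and the region in an intron of cct-3 (18.7), and the dashed line is the weakest region of the IDR set (37.1).

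The remaining 5 genes had no joint region in their windows. For cct-3, the gamma subunit (WBGene00018782, chrII:2233540-2243539), replicate 2 alone listed a region 286 bp upstream, with a signal of 6.32 and rank 19333, far down its list. A joint region with a signal of 18.7 and rank 2458 lay in an intron of cct-3, 1122 bp downstream of the 5′ end and outside the window. Replicate 2 had a region there too, at 1206 bp downstream with rank 2738, and replicate 1 had none within 2000 bp of the 5′ end.

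For cct-6, the zeta subunit (WBGene00000381, chrIII:5853530-5855687), each replicate listed a region in the window but the joint list did not. The replicate 1 midpoint lay 185 bp upstream with a signal of 9.16 and rank 8845, and the replicate 2 midpoint lay 399 bp upstream with a signal of 9.64 and rank 4905. They were 214 bp apart, with 166 bp of overlap between the regions, and both were nearer to the divergent gene alh-9, which encodes an aldehyde dehydrogenase. In the Ensembl annotation used here the 5′ end of alh-9 is 331 bp upstream of that of cct-6. The replicates therefore did not mark the same point at cct-6.

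For cct-7, the eta subunit (WBGene00020391, chrV:1872246-1875505), no list had a midpoint in the window. Replicate 1 came closest, with a midpoint 506 bp upstream, 6 bp outside the limit, at rank 22791, and replicate 2 had one 772 bp upstream at rank 25729. The cct-8 midpoints at 401 to 438 bp upstream are the nearest to that limit on its inner side. For cct-2, the beta subunit (WBGene00000378, chrII:8927741-8929815), the nearest midpoints were 2197 bp away in replicate 1 and 2048 bp away in replicate 2. For cct-4, the delta subunit (WBGene00000379, chrII:8283667-8285711), they were 4093 bp away in replicate 1 and 3182 bp away in replicate 2. The depth is unknown, so the empty windows of cct-2, cct-4 and cct-7 show that no region was listed and not that no protein was bound.

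**Figure D3:**
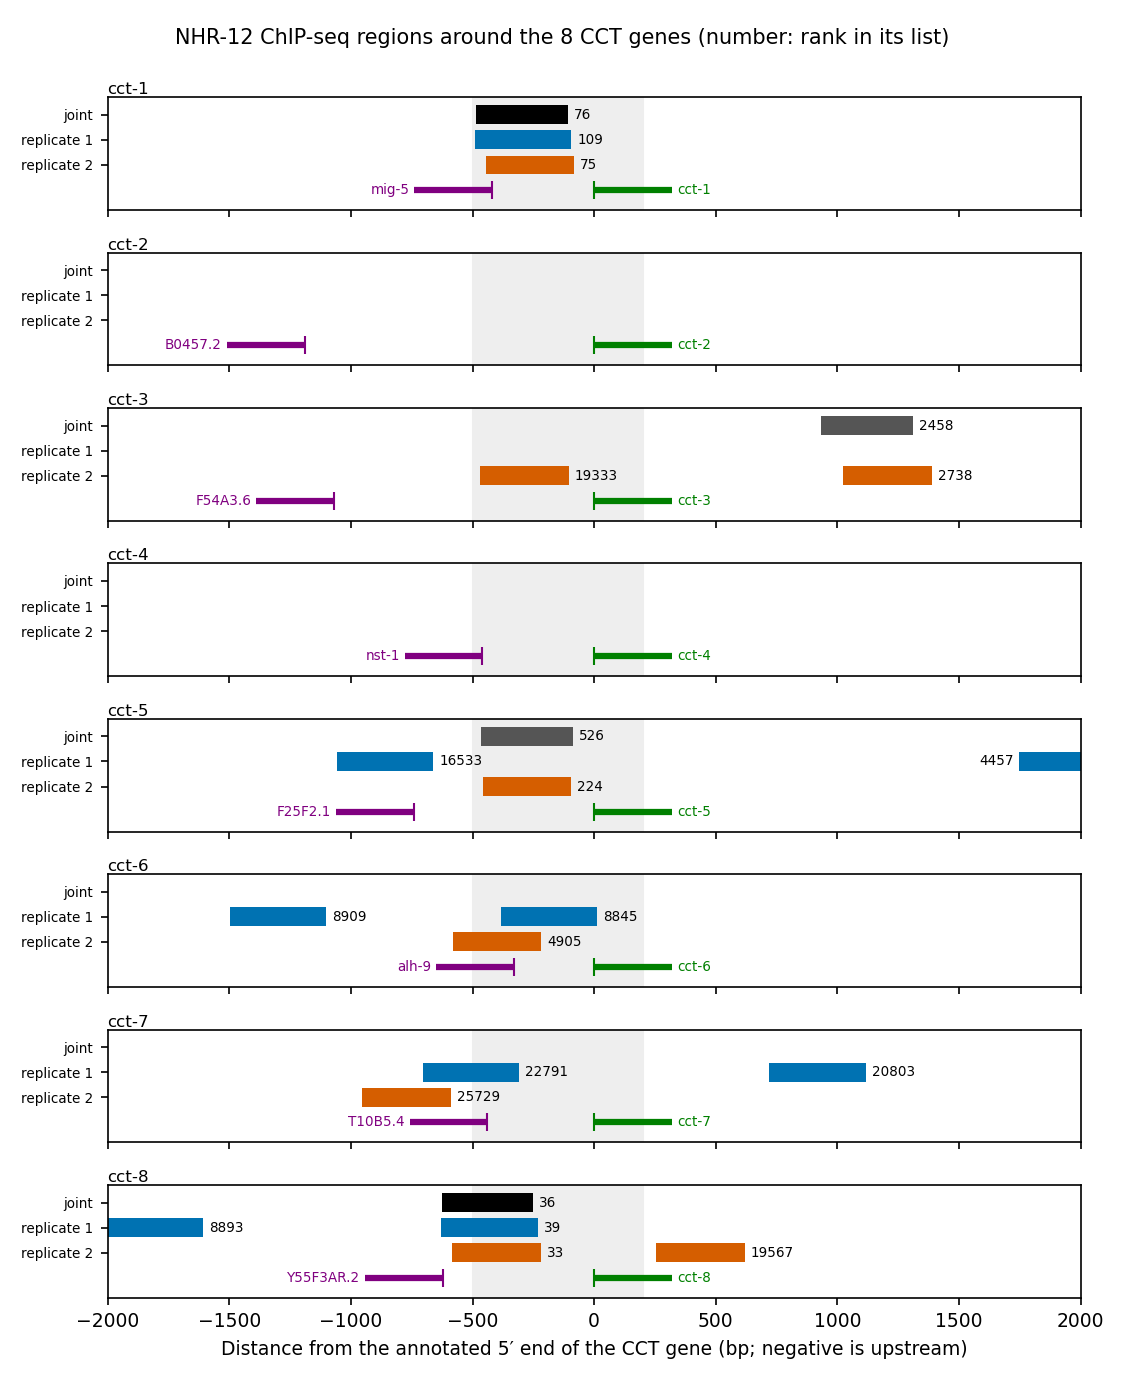
Regions within 2000 bp of the annotated 5′ end of each CCT gene, drawn to scale on the strand of that gene (x axis, bp, negative is upstream). Bars are regions of the joint list (black where in the IDR set, dark grey otherwise), replicate 1 (blue) and replicate 2 (orange), with their rank in the list, the grey band is the promoter window, green marks the CCT gene, and purple the divergent neighbour. All lists have a region upstream of cct-8 and cct-1, with midpoints 401 to 438 bp and 264 to 296 bp from the 5′ end.

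Over the replicate lists alone, 3 of the 8 genes had a region in the window in replicate 1 (cct-1, cct-6 and cct-8), where 21.4% of all protein-coding genes did. In replicate 2 the count was 5 of 8 (cct-1, cct-3, cct-5, cct-6 and cct-8), beside 24.8% of all protein-coding genes. Both replicates had a region in the window of 3 genes, cct-1, cct-6 and cct-8, beside 8.16%. This count was 0 when the window reached 250 bp upstream and 5 when it reached 1000 bp, and the 8.16% does not apply to these windows. The genes added at 1000 bp had replicate midpoints far apart, 859 and 276 bp upstream for cct-5 and 506 and 772 bp upstream for cct-7. With 8 genes, 1 gene makes a difference of 12.5 percentage points, and the 8 were chosen with earlier results of these data known, so no test was made of these counts.

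**Figure D4:**
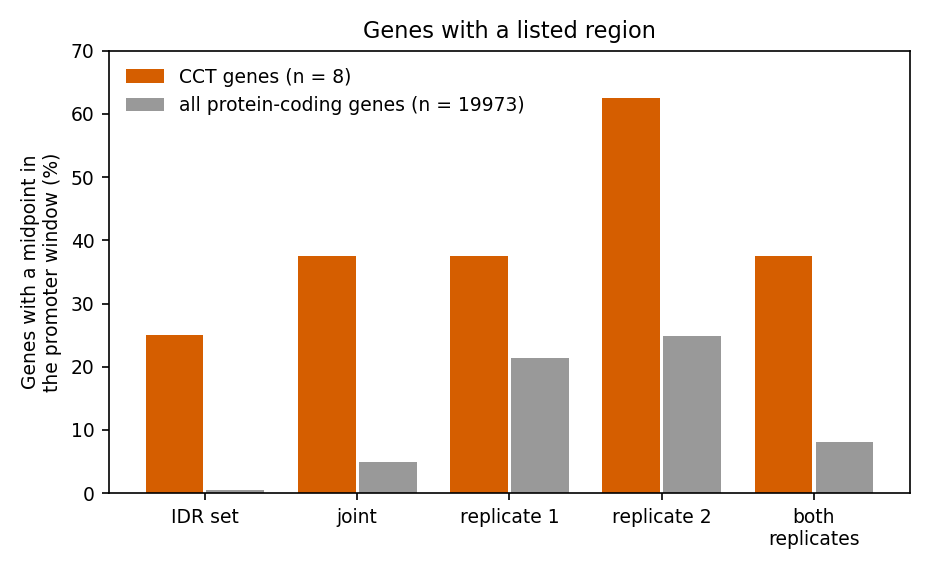
Percentage of genes with a midpoint in the promoter window (y axis) for the IDR set, the joint list, each replicate list and both replicate lists (x axis). Orange bars are the 8 CCT genes and grey bars all 19973 protein-coding genes, with 25% beside 0.511% in the IDR set and 37.5% beside 21.4% in replicate 1.

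The share of genes counted depends on how a region between divergent genes is given to a gene. When a region counted only for the protein-coding gene with the nearest 5′ end, 0 of the 8 CCT genes had an IDR region, beside 0.396% of all protein-coding genes, and 1 of 8, cct-5, had a joint region, beside 4.21%. Of the 102 genes with an IDR region in the window, 23 (22.5%) had one that was nearer to another gene, and cct-8 and cct-1 were among these 23. The data therefore do not tell whether the protein at these sites acts on the CCT gene, on its divergent neighbour, on both or on neither.

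Divergent neighbours were counted after the regions had been seen. In 6 of the 8 (75%) the 5′ end of a protein-coding gene on the opposite strand lay within 1000 bp upstream, compared with 3539 of 19973 protein-coding genes (17.7%). These neighbours were mig-5, nst-1, F25F2.1, alh-9, T10B5.4 and Y55F3AR.2, at 420, 459, 741, 331, 439 and 621 bp upstream of cct-1, cct-4, cct-5, cct-6, cct-7 and cct-8. The neighbours of cct-2 and cct-3, B0457.2 and F54A3.6, were 1190 and 1070 bp upstream. A close divergent neighbour was thus shared by genes with an IDR region (cct-1 and cct-8) and genes with no listed region in the window (cct-4 and cct-7).

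Both IDR regions lay fairly far upstream for IDR regions. The midpoint upstream of cct-8, at 438 bp, was among the 8 (7.84%) of 102 genes whose strongest IDR midpoint in the window was more than 400 bp upstream. That of cct-1, at 296 bp, was at the upper quartile of the 102 genes (median 207 bp, quartiles 151 and 296 bp). Over the 994 genes with a joint region the median was 190 bp and the quartiles were 57 and 335 bp. The midpoints of cct-1 and cct-5 (277 bp) lay between these quartiles. In C. elegans many transcripts are trans-spliced close to the start codon, so that the annotated 5′ end need not be where transcription starts. In the CCT genes the start codon lay between 1 and 30 bp from the annotated 5′ end.

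The 300 bp around each of the 3 joint midpoints were searched on both strands for 8 short motifs chosen for nuclear receptors, heat shock factor and general promoter elements. The nuclear receptor half-site AGGTCA was in none of the 3 windows, where 8.9% of the 146 nuclear IDR windows, 6.61% of 3798 nuclear joint windows and 8.27% of 19973 promoters of the same length (250 bp upstream to 50 bp downstream) held it. The heat shock element core GAANNTTC was in all 3 windows, and was held by 15.8% of IDR windows, 20.5% of joint windows and 18.5% of promoters. It began 385 and 337 bp upstream of cct-8, 192 bp upstream of cct-1 and 150 bp upstream of cct-5. These matches were on the side of the midpoint toward the CCT gene, and no share of other windows is given for the side. The other core, TTCNNGAA, was found at cct-5 only, 419 bp upstream on the side away from the gene and 230 bp upstream on the side toward it. It was held by 14.4% of IDR windows, 19.7% of joint windows and 18.9% of promoters. Heat shock factor is known to drive chaperone genes from arrays of such cores, and its binding was not measured here.

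The cct-8 window held the GC-rich motif GGCGGG on each strand, 416 and 409 bp upstream and separated by 1 base, which makes an inverted repeat whose 2 matches begin 22 and 29 bp from the midpoint. This motif was in 4.79% of IDR windows, 5.63% of joint windows and 6.48% of promoters, and in neither of the other CCT windows. TATAAA was found at cct-1 only, as a match on each strand that overlap at 384 and 382 bp upstream, and was held by 24% of IDR windows, 33.8% of joint windows and 37.9% of promoters. The T-rich motif TTTTTC was at cct-8 and cct-5, with 2 matches each (those at cct-5, and its TTCNNGAA at 419 bp, begin just before the stretch printed), and in 65.8% of IDR windows, 79.4% of joint windows and 78.6% of promoters. CACGTG was in none of the 3 windows (7.53% of IDR windows, 4.92% of joint windows and 5.82% of promoters), nor was the repeat GAGAGAGA (13% of IDR windows, 4.74% of joint windows and 3.54% of promoters). The GC content of the windows was 39% at cct-8, 34.3% at cct-1 and 33.7% at cct-5, against a median of 40.7% over nuclear IDR windows (quartiles 36.1% and 48%) and 33.7% over nuclear joint windows. A match of letters describes these windows and is not a measured binding site.

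Genes that work with CCT were read the same way. None of the 6 prefoldin genes had an IDR region, and 2 of 6 had a joint region: pfd-3, 20 bp upstream with a signal of 23.7 and rank 701, and pfd-1, 407 bp upstream with a signal of 26.3 and rank 457. The pfd-1 midpoint was nearer to the 5′ end of F01G4.6. In the replicates, 4 of 6 prefoldin genes had a region in replicate 1 and 5 of 6 in replicate 2, and pfd-1, pfd-3 and pfd-6 in both. Over all protein-coding genes the shares were 0.511% in the IDR set, 4.98% in the joint list, 21.4% in replicate 1, 24.8% in replicate 2 and 8.16% in both replicates.

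Among the clients, 1 of 16 tubulin genes had an IDR region, beside 0.511% of all protein-coding genes, and 3 of 16 had a joint region, beside 4.98%. This was tba-2, an alpha-tubulin gene that is broadly expressed, whose midpoint was 142 bp upstream with a signal of 62.9, between those of cct-8 and cct-1, and whose ranks were 51 in the joint list, 64 in replicate 1 and 39 in replicate 2. No protein-coding 5′ end was nearer to it. The tubulin genes tbb-2 (signal 21.8, rank 1101) and mec-12 (signal 18.6, rank 2532) had joint regions, each with a region in replicate 2 and none in replicate 1. Over the replicate lists, 2 of 16 tubulin genes had a region in replicate 1, beside 21.4% of all protein-coding genes. In replicate 2 the count was 5 of 16, beside 24.8%, and in both replicates it was 2 of 16, beside 8.16%. These 2 were tba-2 and tba-6. The tba-6 midpoint was 217 bp upstream in replicate 1 (rank 25612) and 482 bp upstream in replicate 2 (rank 10801). The replicates therefore did not mark the same point at tba-6. None of the 5 actin genes had a joint region. Of the 5, act-3 and act-4 had a region in replicate 2 only, where 24.8% of all protein-coding genes had one.

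Of 7 other chaperone and heat shock genes, none had an IDR region by this window, beside 0.511% of all protein-coding genes. Joint regions were found at 2 of 7, beside 4.98%, and both replicates listed a region at 2 of 7, beside 8.16%. The joint list had a region 47 bp upstream of hsp-3, an endoplasmic reticulum HSP70 gene, with a signal of 34.2 and rank 196, and one 385 bp upstream of hsp-1, a cytosolic HSP70 gene, with a signal of 28.8 and rank 321. Both were nearest to these genes and listed in both replicates, where hsp-3 ranked 573 in replicate 1 and 230 in replicate 2, and hsp-1 ranked 7327 in replicate 1 and 150 in replicate 2. The hsp-1 region, like that of cct-5, was thus strong in replicate 2 and weak or not listed in replicate 1.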

How the data were processed

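ChIP-seq region lists of 2 biological replicates of 1 group were used. Per the labels and the deposited description of file derivations, the authors made them in the ce11 build from the alignments and 1 control file. Alignment and peak calling programs and the cut on IDR are not named in the sources used here. Each region carries the authors' signal value, without a stated unit, and a −log10 q-value, as deposited. The ce10 lists were not used, and sequencing depth was unknown.

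The midpoint was the region start plus the offset in the file, counted from 1. Genes came from Ensembl release 115 and sequence from RefSeq, both WBcel235, and no region ended beyond a chromosome. Ranks were by signal within a list, over nuclear and other regions together unless given as nuclear. Regions of 2 lists matched within 100 bp. Counting and motif search were tested on simulated data. The text names the 8 genes, the genes nearest to or sharing their regions, related genes with a joint region, and the 2 regions closest in rank. The divergent neighbours that share no region (nst-1, T10B5.4, B0457.2 and F54A3.6), Y55F3AR.4, F01G4.6, act-3, act-4, tba-6, pfd-5, pfd-6, hsp-60 and hsp-90 fall outside this rule and were named after their values were seen. The members, gene lists and motifs were chosen with earlier results of these data known, so nothing here is a test. Python 3.11.15, pandas 2.3.3 and numpy 2.4.6 were used.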

Additional observations from a re-analysis of the deposited data

How the results depend on the processing

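The IDR count of 2 genes and the joint count of 3 genes were 0 and 0 with an upstream limit of 250 bp, and 0 and 1 when a region counted only for the nearest 5′ end. The count of 3 genes with a region in each replicate was 0 and 0 under these choices and 5 with an upstream limit of 1000 bp, which added cct-5 and cct-7. The other alternatives left these counts within 1.5 times, among them any overlap with the window, transcript 5′ ends, the 82 strongest IDR regions and, chosen after seeing the data, the start codon as 5′ end. Asking that the replicate midpoints lie within 100 bp, also chosen after seeing the data, left cct-1 and cct-8. No share of all protein-coding genes stands beside the counts at limits of 250 and 1000 bp. With 1 replicate left out, and as many of the strongest regions of the other taken, the IDR count was 2 either way (cct-1 and cct-8), and the joint count ran from 2 to 3, without cct-5 where replicate 2 was left out. The signal then ran from 36.7 to 38.7 for cct-8 and from 22.7 to 27.8 for cct-1, on other scales than the joint list.

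Alternatives for the 34 related genes were added after seeing the data, and no share of all genes is given beside these alternatives. With the limit of 500 bp, 1 of these 34 genes had an IDR region, beside 0.511% of all protein-coding genes. Of the same genes, 7 had a joint region, beside 4.98%. Their IDR count of 1 was 2 with a limit of 1000 bp or any overlap (hsp-60 added), 2 with any transcript's 5′ end (hsp-90 added) and 1 to 2 with a replicate left out (hsp-1 added by replicate 2 alone). With the start codon as 5′ end, hsp-90 was counted and tba-2 was not. Their joint count of 7 was 4 with the limit of 250 bp and 3 to 8 with a replicate left out, 3 without replicate 2. No paired analysis was possible because the series has 1 group and no test was made. Unknown depth limits what an empty window shows.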
